A study of Mus musculus with 2 samples.

Results

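The genes described here encode the proteins of the mitochondrial ribosome, and their transcripts were measured by RNA sequencing in MIN6, a line of insulin-making cells from a mouse insulinoma that stands in for the beta cell of the islet. They were taken from the table of all genes as the protein-coding genes whose symbol starts with Mrpl or Mrps and a digit, which gave 77 of 21542 genes. The choice used names alone and no measured value. The cells were of C57BL/6 strain per the labels, grew at 25 mM glucose with 15% serum, and were transfected with Lipofectamine 2000. There was 1 library from cells given a vector that expresses GR, the glucocorticoid receptor encoded by Nr3c1, a hormone-activated transcription factor, and 1 from cells that received a control vector. The sources used here do not give the species or form of the GR cDNA, the share of cells that took up plasmid, the time to harvest or any added glucocorticoid. With 1 library per group, no difference below has a replicate check, and a test on their reads compares the libraries and not the treatments.

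The mitochondrial ribosome translates the messenger RNAs that mitochondrial DNA encodes, all of which code for core subunits of the respiratory chain and ATP synthase. Its ribosomal RNAs come from mitochondrial DNA, while its proteins are encoded in the nucleus, made in the cytosol and imported. The small subunit decodes the messenger RNA and the large subunit forms peptide bonds. Many of its proteins have counterparts in bacterial ribosomes, and others are found only in mitochondria. In beta cells, oxidative phosphorylation supplies the ATP that couples glucose to insulin secretion.

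The library of the GR vector held 18525668 reads over genes and that of the control vector 18537326. Nr3c1 had 5202 reads with the GR vector, against 2645 with the control vector, a fold of 1.97 (95% counting interval 1.88 to 2.07), with an adjusted p of 1 as given by the authors' deposited table. The 10 beta cell markers summed to 888586 reads with the GR vector, against 937738 with the control vector. Most of that gap came from Ins2, with 373033 reads with the GR vector and 407986 with the control vector. Ins2, Ins1, Iapp, Chga and Nkx6-1 had folds from 0.917 to 0.979. Pdx1, Slc2a2, Mafa, G6pc2 and Slc30a8 had folds from 1.01 to 1.04. Markers of other islet cells had 737 reads with the GR vector and 629 with the control vector over the 2 of 4 that the table lists. The 2 listed fibroblast and endothelial markers summed to 73 reads with the GR vector and 63 with the control vector, and the 2 immune markers to 22 with the GR vector and 26 with the control vector. None of the 4 acinar and duct markers had a row in the table. The part of any marker in the results below was not tested.

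The promoters of 5 genes are shown because they belong to the ends of the fold range described below, and because they hold, or lack, the letters that are searched over all promoters further on. Each run gives the 250 bases before the start of transcription in RefSeq, 5′ to 3′ on the gene's own strand, with GRCm38.p6 coordinates. For Mrps24 that start lies 7979 bases inside the gene as the deposited table bounds it, while for the other 4 it lies within 33 bases of the table's gene start. Capitals mark a match to the core of the Nrf1 site (GCGCATGC), the ETS site bound by GABP (CCGGAAG) or the inner letters of a glucocorticoid response element (ACANNNTGT). Mrps36 and Mrpl11 had the highest folds, Mrpl22 the next, and Mrpl34 and Mrps24 the lowest. A match of Mrps24 to YY1 letters lies after the start and is not shown.
Mrps36 (chr13:100744660-100744909, strand -): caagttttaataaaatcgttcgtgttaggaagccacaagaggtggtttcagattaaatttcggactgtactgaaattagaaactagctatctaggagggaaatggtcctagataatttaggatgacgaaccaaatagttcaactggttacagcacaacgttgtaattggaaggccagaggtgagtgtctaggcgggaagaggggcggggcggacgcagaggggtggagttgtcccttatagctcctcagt
Mrpl11 (chr19:4962056-4962305, strand +): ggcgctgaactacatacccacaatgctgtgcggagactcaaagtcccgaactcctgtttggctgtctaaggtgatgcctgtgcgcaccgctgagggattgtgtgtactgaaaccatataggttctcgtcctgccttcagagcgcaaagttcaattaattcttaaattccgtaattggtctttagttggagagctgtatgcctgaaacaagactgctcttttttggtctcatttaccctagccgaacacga
Mrpl22 (chr11:58171414-58171663, strand +): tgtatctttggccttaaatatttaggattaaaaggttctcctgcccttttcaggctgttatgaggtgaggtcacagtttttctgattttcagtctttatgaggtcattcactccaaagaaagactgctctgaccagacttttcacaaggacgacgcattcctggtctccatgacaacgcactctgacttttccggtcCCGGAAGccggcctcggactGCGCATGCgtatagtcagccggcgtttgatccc
Mrpl34 (chr8:71464676-71464925, strand +): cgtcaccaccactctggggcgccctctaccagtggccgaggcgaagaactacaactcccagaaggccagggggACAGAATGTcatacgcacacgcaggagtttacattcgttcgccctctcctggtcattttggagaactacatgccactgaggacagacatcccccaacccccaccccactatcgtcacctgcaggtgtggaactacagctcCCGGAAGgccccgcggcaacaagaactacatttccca
Mrps24 (chr11:5707702-5707951, strand -): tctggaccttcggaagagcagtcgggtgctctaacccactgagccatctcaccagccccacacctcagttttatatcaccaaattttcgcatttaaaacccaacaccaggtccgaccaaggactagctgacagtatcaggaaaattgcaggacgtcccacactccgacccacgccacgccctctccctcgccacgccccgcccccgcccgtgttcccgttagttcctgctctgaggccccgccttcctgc

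As a group, the mitochondrial ribosomal protein genes had nearly equal reads in the libraries. All 77 averaged 100 reads or more, with means between 131 for Mrps6 and 1637.5 for Mrpl49 and a median of 564.5. Together they took 48415 reads with the GR vector, which is 0.261% of that library (exact 95% interval 0.259 to 0.264), and 49074 reads with the control vector, which is 0.265% (0.262 to 0.267). The fold of these sums, GR vector over control, was 0.989 (0.977 to 1.00). In these bulk libraries, fewer cells with a transcript and less of it per cell cannot be told apart.

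The folds of single genes lay close together as well. Their median fold was 0.989, with 33 genes above 1 and 44 below it (42.9% above), and the SD of the log2 folds was 0.12. Over the 11070 genes that averaged 100 reads or more, the median fold was 1.00, with 51.3% above 1 and an SD of 0.14. A fold within 1.1 in either direction was found for 61 of the 77 genes (79.2%), against 74.3% of the 7569 genes in the same range of mean reads. At the depth of the typical member, the interval of a log2 fold reached 0.17 to either side, so a fold under about 1.13 could not be told from 1 by counting.

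**Figure D1:**
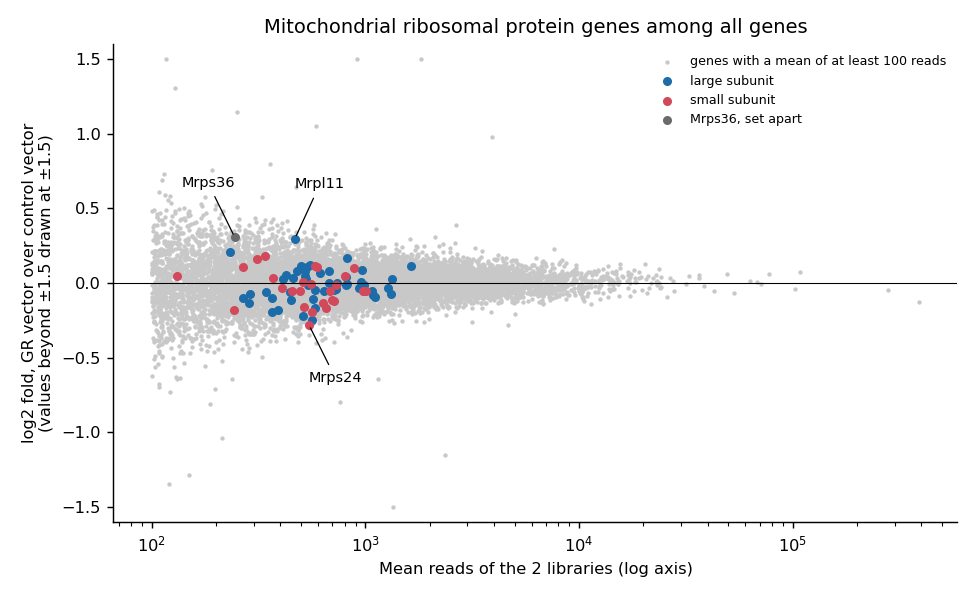
Log2 fold with the GR vector relative to the control vector (y axis) against the mean reads of the libraries (log x axis), for 11070 genes averaging 100 reads or more (grey) and for the mitochondrial ribosomal protein genes by subunit (coloured). The coloured points lie inside the grey cloud around 0, from -0.28 for Mrps24 to 0.31 for Mrps36, and the 3 named genes are those past 1.2-fold.

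Past a 1.2-fold difference lay 3 members. Mrps36 and Mrpl11 were higher with the GR vector, 2 of 77, where 2.68% of all 11070 genes were that much higher. Mrps24 was lower, 1 of 77, where 2.36% of all genes were that much lower. The members' counts were near the background in both directions. An exact 95% counting interval entirely above 1 was found for 4 members (background 10.8% of genes) and one entirely below 1 for 6 members (background 8.63%). Both counts were near or under the share found over all 11070 genes, which had a median of 843 reads, against 564.5 for the members. Over the 7569 genes in the members' range of mean reads, 607 had an interval above 1 and 546 one below.

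No member passed the library test, a two-sided exact binomial test on each gene's reads, adjusted by Benjamini-Hochberg over the 21542 genes, at an adjusted p under 0.05. In that test 1.58% of all genes were higher and 1.14% lower with the GR vector. Without adjustment, 4 members had a p under 0.05 and higher reads with the GR vector, where 11% of the 11070 genes did, and 6 had lower reads, where 8.79% did. Neither count is above the share over those genes. By the authors' deposited table, which rests on an edgeR exact test with a preset spread, 0.0186% of all genes had an adjusted p under 0.05 and 1.09% an unadjusted p under 0.05. None of the 77 members was among either set in the authors' deposited table.

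**Figure D2:**
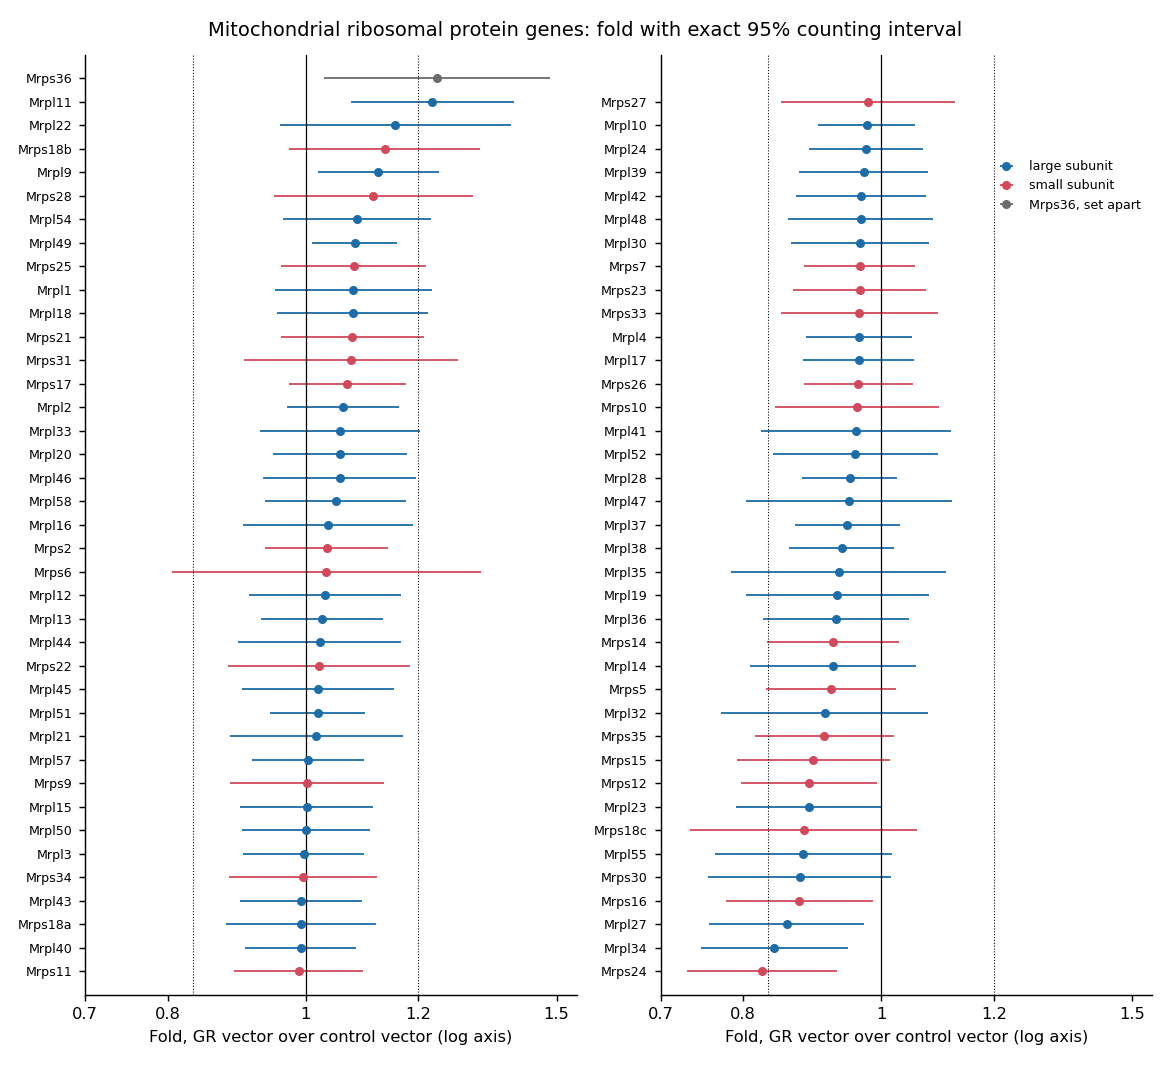
Fold, GR vector over control (log x axis), for each of the 77 genes, ordered from the highest to the lowest across both panels, with exact 95% counting intervals as bars, the value 1 as a solid line and 1.2-fold in either direction as dotted lines. Most intervals cross 1; 10 do not.

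The large subunit holds the peptidyl transferase centre, the exit tunnel and the stalk that recruits translation factors. Its 50 genes among the members, counting Mrps30 and Mrps18a, whose proteins sit in the large subunit despite their names, summed to 33711 reads with the GR vector and 34004 with the control vector, a fold of 0.994 (0.979 to 1.01). Of these genes, 22 were above 1 and 28 below, with a median fold of 0.992.

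Mrpl11 encodes the counterpart of bacterial L11 at the base of the factor-binding stalk. It had 514 reads with the GR vector, against 420 with the control vector, a fold of 1.23 (1.08 to 1.40). Its adjusted p in the library test was 0.0626 over all genes and 0.0364 when only the 11070 genes averaging 100 reads or more were tested. The gene lies at chr19:4962306-4966995 on the plus strand, in the coordinates of the deposited table (GRCm38, by the match of 72 of the 77 genes to that annotation), and shared 1.17% of its 31-mers (stretches of 31 bases) with other genes.

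Mrpl22 encodes a protein of the exit tunnel wall, and had 249 reads with the GR vector and 216 with the control vector. That fold of 1.16 had an interval of 0.960 to 1.39, which includes 1. Mrpl9, the counterpart of bacterial L9, had 871 reads with the GR vector, against 777 with the control vector, a fold of 1.12 (1.02 to 1.24). Mrpl49, a protein found only in mitochondrial ribosomes and the most read member, had 1700 reads with the GR vector, against 1575 with the control vector, a fold of 1.08 (1.01 to 1.16).

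At the other end of the large subunit, Mrpl34, the counterpart of the small bacterial protein L34, had 515 reads with the GR vector, against 614 with the control vector. Its fold was 0.841 (0.747 to 0.947), and none of its 31-mers were found in another gene. Mrpl27, whose bacterial counterpart reaches into the peptidyl transferase centre, had 470 reads with the GR vector, against 549 with the control vector, a fold of 0.859 (0.757 to 0.973). Mrpl23, a counterpart of a bacterial protein at the tunnel exit, had 547 reads with the GR vector and 617 with the control vector, a fold of 0.889 (0.791 to 0.999). For Mrpl34, Mrpl27 and Mrpl23 the counting interval lies below 1, and no gene of the 3 passed the library test over all genes.

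Mrps30 had 339 reads with the GR vector and 388 with the control vector, a fold of 0.876 (0.755 to 1.02). Mrpl55, the mitochondrial counterpart of bacterial L31, had 364 reads with the GR vector and 414 with the control vector, a fold of 0.882 (0.764 to 1.02). Both intervals include 1.

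The genes of well-known sites and side roles in the large subunit had closely matched reads. Mrpl3, near the peptidyl transferase centre, had 820 reads with the GR vector and 825 with the control vector. Mrpl12, a protein of the factor-binding stalk that is also reported to bind the mitochondrial RNA polymerase, had 530 reads with the GR vector and 515 with the control vector. Mrpl58, a peptidyl-tRNA hydrolase that can release stalled chains, had 627 reads with the GR vector and 599 with the control vector. All of these intervals include 1, as does that of Mrpl44, a protein related to RNA-cleaving nucleases, which had 463 reads with the GR vector and 454 with the control vector. The folds of the 4 genes ran from 0.997 for Mrpl3 to 1.05 for Mrpl58.

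Among the other most read large-subunit genes, Mrpl51 had 1343 reads with the GR vector and 1321 with the control vector. Mrpl28 had 1288 reads with the GR vector and 1359 with the control vector, and Mrpl10, part of the stalk, had 1262 with the GR vector and 1296 with the control vector. Mrpl38 had 1069 reads with the GR vector and 1143 with the control vector, and Mrpl37 had 1058 with the GR vector and 1121 with the control vector. These 5 folds lay between 0.938 for Mrpl38 and 1.02 for Mrpl51, and at this higher depth each interval still includes 1.

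The small subunit binds the messenger RNA and holds the decoding centre. Its 26 genes among the members, without Mrps36, summed to 14434 reads with the GR vector and 14851 with the control vector, a fold of 0.975 (0.953 to 0.997). This sum covers only part of the subunit, since Dap3 and other subunit genes with other names are not in it. Those 5 genes, which belong to both subunits, summed to 4362 reads with the GR vector and 4141 with the control vector. The median fold was 0.972, with 10 genes above 1 and 16 below. The interval of the sum lies just under 1, but it covers counting error only, and the fold itself was well within 1.1.

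Mrps24, the counterpart of bacterial S3 at the entry of the messenger RNA channel, had 490 reads with the GR vector, against 596 with the control vector. Its fold of 0.825 (0.730 to 0.931) was the lowest of all 77, with an adjusted p of 0.0557 in the library test over all genes and 0.0323 over those 11070 genes. With the trend of log2 fold on transcript GC content or length removed, it no longer lay past 1.2-fold. Exons of Urgcp on the same strand overlapped 15.4% of its exon bases at chr11:5703983-5715680, and 16.4% of its 31-mers occurred in another gene.

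Mrps16, which is mutated in a human mitochondrial disease, had 524 reads with the GR vector, against 600 with the control vector, a fold of 0.876 (0.778 to 0.986). Mrps12, the counterpart of the decoding protein S12, had 615 reads with the GR vector, against 693 with the control vector, a fold of 0.890 (0.797 to 0.994). With Mrps24, these were the 3 small-subunit members whose counting interval lay below 1, and 0 of these 26 members had one above 1. The 26 were chosen by name. Of the subunit genes with other names, described below, Dap3 (1.03 to 1.19) and Chchd1 (1.05 to 1.36) had intervals above 1. Over all 11070 genes, 8.63% had an interval below 1 and 10.8% one above it. Mrps28 had 327 reads with the GR vector and 294 with the control vector, a fold of 1.12 whose interval includes 1 and reaches 1.31.

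Mrps22 and Mrps34, both also mutated in such diseases in humans, had counting intervals that include 1. Mrps22 had 374 reads with the GR vector and 367 with the control vector. Mrps34 had 553 reads with the GR vector and 557 with the control vector, although 73.8% of its 31-mers occur in another gene, so its reads may be shared with its neighbours.

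The 3 Mrps18 paralogs descend from bacterial S18 and differ in where they sit. Mrps18b had 358 reads with the GR vector and 316 with the control vector, a fold of 1.14 (0.974 to 1.33). Mrps18c had 226 reads with the GR vector and 257 with the control vector, a fold of 0.882 (0.734 to 1.06). Mrps18a, the paralog in the large subunit, had 536 reads with the GR vector and 542 with the control vector, a fold of 0.992 (0.879 to 1.12). The point values of the small-subunit paralogs lie on opposite sides of 1, but every one of these intervals includes 1.

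Mrps36 was set apart, since its protein is also known as a subunit of the 2-oxoglutarate dehydrogenase complex of the citric acid cycle. It had 270 reads with the GR vector, against 219 with the control vector, a fold of 1.24 (1.03 to 1.48), the highest of the 77. Of its 31-mers, 21% occurred in another gene. Its annotated pseudogenes had few reads: Mrps36-ps1 had 26 with the GR vector and 34 with the control vector, and Mrps36-ps2 had 15 with the GR vector and 20 with the control vector. The gene lies at chr13:100735955-100744659 on the minus strand.

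The other 43 members, drawn with all the rest in the plot of folds with counting intervals, had folds between 0.889 and 1.09 at mean reads from 131 to 1078. Of these, 18 were above 1 and 25 below, and Mrpl23 was the only 1 with an interval that excludes 1.

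By evolutionary class, 48 members have a bacterial counterpart and 29 are specific to mitochondria. The bacterial class had a median fold of 0.976, with 20 genes above 1 and 28 below, and with 2 intervals above 1 and 6 below. The mitochondria-specific class had a median fold of 0.993, with 13 genes above and 16 below, and with 2 intervals above 1 and 0 below. This class includes Mrps36, set apart above, whose interval is 1 of those 2. The difference between the classes was not tested.

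Reads divided by transcript length and library size allow levels to be set side by side across genes. On this scale (RPKM, reads per kb of transcript scaled to library size) the mean level of the members ran from 3.86 for Mrpl35 to 65.6 for Mrps21, a 17.0-fold range, with a median of 17.4 and quartiles of 8.61 and 26.9. Mrps21 had a level of 68.1 with the GR vector and 63.2 with the control vector. Mrpl28 had 61.4 with the GR vector and 64.6 with the control vector. Mrpl2, a core protein near the peptidyl transferase centre, had 52.2 with the GR vector and 49.1 with the control vector, and Mrpl34 had 45.8 with the GR vector and 54.5 with the control vector. The order among these leading genes depends on the transcript length used: with the gene length of the authors' deposited table, Mrpl28 came 1st and Mrps21 5th.

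Levels of these genes spread more widely than the libraries differed. Across the 77 members, log2 levels in the libraries correlated with Pearson's r = 0.994 and Spearman's rho = 0.992 (n = 77 genes, given as a description, since both libraries share gene lengths and genes are not replicates). The median level was 19.5 for the large subunit and 14.3 for the small subunit.

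**Figure D3:**
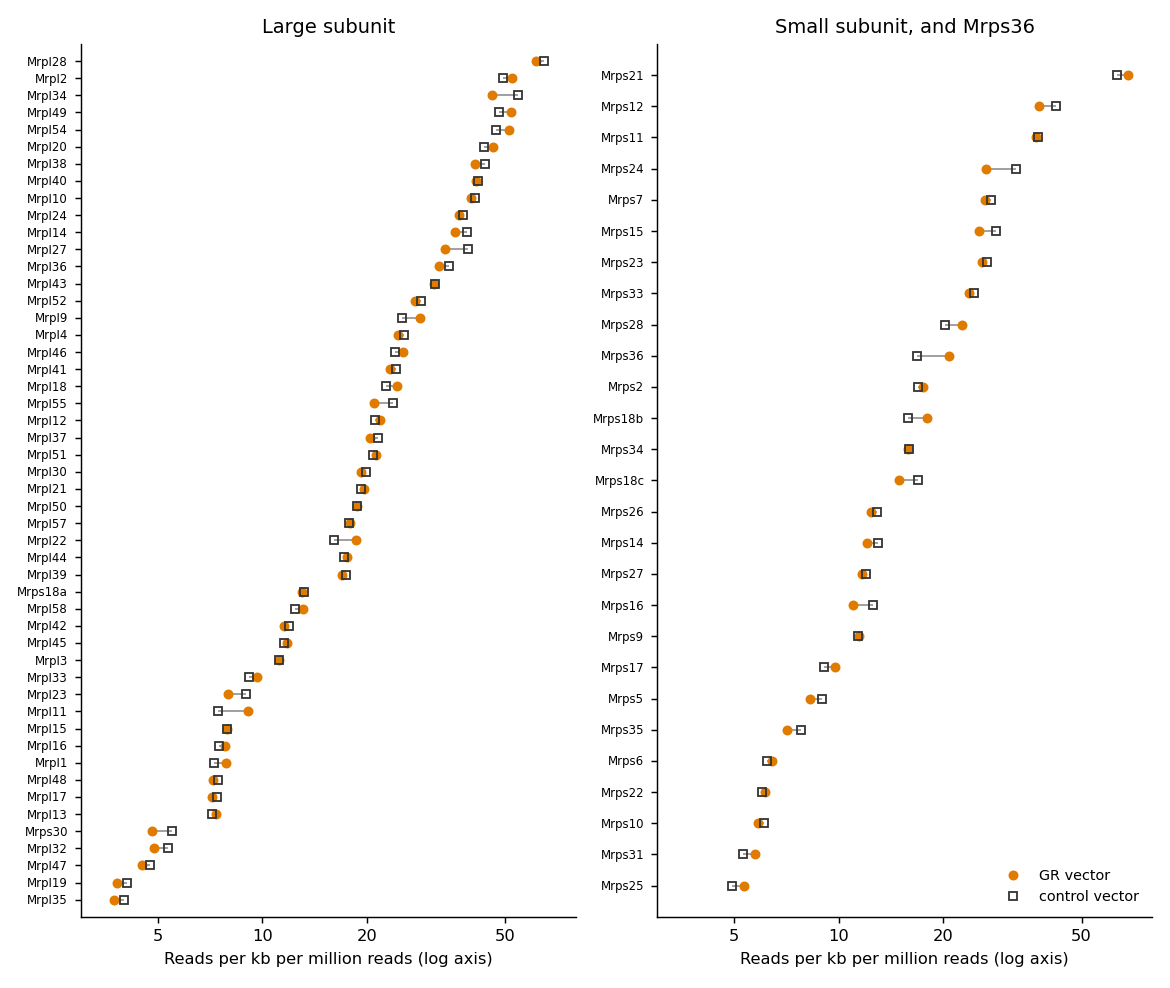
Level of each gene in RPKM, its reads per kb of transcript scaled to library size (log x axis), with the GR vector (filled circles) and the control vector (open squares), joined by a line, for the large subunit (left) and for the small subunit with Mrps36 (right). The genes span 3.86 to 65.6, and the gap between the symbols of a gene is small beside that span.

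Log2 folds over all genes followed the GC content of the transcript, with r = -0.28 and rho = -0.37 over 11062 genes. Over the members, the same correlation was r = -0.07 and rho = -0.06 (n = 77), given as a description of genes that share both libraries. With the GC trend of all genes removed, the members' median log2 fold was -0.02, as it was before. Members with transcript GC under the members' median of 49.7% included all 4 whose interval lay above 1, and those at or above it included 5 of the 6 whose interval lay below 1. With the trend removed, each of these genes kept the sign of its log2 fold. Mrps36 went from 0.31 to 0.29 and Mrpl11 from 0.30 to 0.29. Mrps24 went from -0.28 to -0.24 and Mrpl34 from -0.25 to -0.20. The part of GC content in those folds was not tested beyond removing the trend.

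The members were spread over 17 chromosomes, with 11 genes on chromosome 11 and 8 on chromosome 17. A protein-coding gene started head to head, on the opposite strand and within 500 bases, at 25 of the 77 (32.5%), against 1565 of 10618 protein-coding genes at that read depth (14.7%). Mrpl46 and Mrps11 face each other. This pair, chosen after its values were seen, had 533 reads (Mrpl46) and 723 reads (Mrps11) with the GR vector, against 506 and 733 with the control vector.

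Exons of another annotated gene overlapped those of 32 members, and 10 members had at least 25% of their 31-mers in another gene. The sources used here do not state whether reads were assigned by strand, so the reads of these 10 are uncertain where an antisense neighbour overlaps. Mrps25 and Mrps34 had the largest shares, 68.9% and 73.8%. Mrps25 had 599 reads with the GR vector and 556 with the control vector. Mrpl43, which overlaps the antisense gene Twnk of the mitochondrial helicase, had 809 reads with the GR vector and 817 with the control vector.

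The intervals of the other genes of this kind also include 1, apart from Mrpl27. Mrpl24 had 915 reads with the GR vector and 941 with the control vector. Mrpl47 had 281 with the GR vector and 297 with the control vector, and Mrpl19 had 352 with the GR vector and 379 with the control vector. Mrpl22, Mrps18b, Mrps18c and Mrpl27, given above, complete the 10.

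A promoter sequence from 250 bases before to 50 after the start was found for 68 of the 77 members, and for 6 of them the RefSeq start lay over 500 bases from the gene start of the deposited table. The 9 without one were Mrpl13, Mrpl15, Mrpl19, Mrpl38, Mrpl4, Mrpl54, Mrps28, Mrps34 and Mrps35. Letters were searched on both strands, and a match is a description of the sequence only. The ETS letters CCGGAAG were found in 25 members (36.8%), against 9.93% of all 27025 genes with a promoter and 21.9% of the 8447 expressed protein-coding ones (averaging 100 reads or more). A promoter was at hand for 79.5% of the expressed protein-coding genes, so shares over them are incomplete. The letters of the Nrf1 core GCGCATGC were found in 8 members (11.8%), against 3.05% and 6.75% of those sets. The YY1 letters AAGATGGCG were found in 8 members (11.8%), against 1.64% and 4.03%. Of 68 members, 35 (51.5%) held at least 1 of these 3 motifs, against 29.9% of the expressed protein-coding genes.

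Nrf1, GABP and YY1 are transcription factors known for driving nuclear genes of mitochondrial proteins. The promoter of Mrpl22 printed above holds both the Nrf1 and the ETS letters. The Sp1 letters GGGCGG, left in lower case above, were found in 34 members (50%), against 38.2% of all genes and 72.4% of the expressed protein-coding genes. The E-box CACGTG was found in 5 members (7.35%), against 8.09% and 12.3% of those sets. The inner letters ACANNNTGT of a glucocorticoid response element were found in 3 members, Mrpl45, Mrpl23 and Mrpl34, which is 4.41%, against 7.90% of all genes and 4.24% of the expressed protein-coding genes. Mrpl45, which anchors the ribosome to the inner membrane, had 530 reads with the GR vector and 521 with the control vector.

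**Figure D4:**
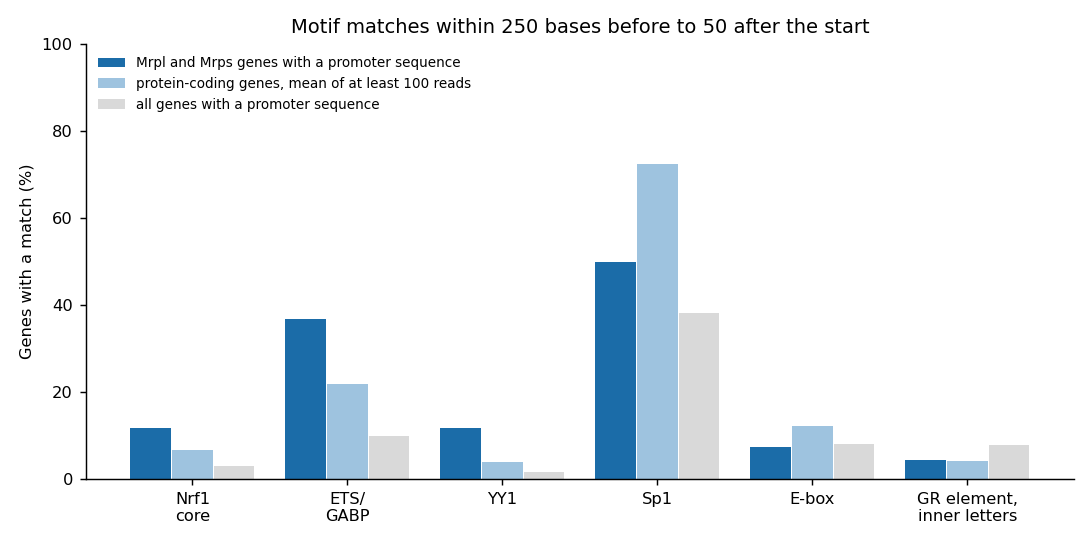
Share of genes (y axis, percent) whose sequence from 250 bases before to 50 after the start holds each motif on either strand, for the 68 mitochondrial ribosomal protein genes with a promoter (dark), the 8447 expressed protein-coding genes (light blue) and all 27025 genes with a promoter (grey). The dark bar is the tallest for the Nrf1, ETS and YY1 letters and is below the light blue bar for Sp1 and the E-box.

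Folds of members with a motif were set beside those of members without it, as a description. Members with the ETS letters had a median log2 fold of -0.01 (25 genes) and those without it -0.03 (43 genes). All 8 members with the YY1 letters, Mrps18a, Mrps11, Mrps27, Mrpl42, Mrpl37, Mrpl35, Mrpl36 and Mrps24, had a fold under 1, with a median log2 fold of -0.06. Of the members without them, 29 were above 1 and 31 below. Over all 340 expressed genes with the YY1 letters, 170 were above and 170 below 1. With the GC trend removed, 6 of the 8 members lay below. For Mrps24, Mrpl35 and Mrpl36 the RefSeq start lay 7979, 3185 and 2496 bases inside the gene as the deposited table bounds it. The 3 members with the inner letters of the glucocorticoid response element had a median log2 fold of -0.17, with 1 above 0 and 2 below, and the 65 without them had a median of -0.02. For the 3 genes these values are those of Mrpl45, Mrpl23 and Mrpl34 given above, and over all 358 expressed genes with these letters 177 were above 0 and 181 below.

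Genes that work with these proteins were described from 6 lists. The subunit proteins with other names number 5, and 3 of them were above 1. Dap3, a GTP-binding protein of the small subunit, had 1527 reads with the GR vector and 1386 with the control vector. Chchd1 had 508 reads with the GR vector and 426 with the control vector, just under the 1.2-fold threshold. Their median log2 fold was 0.14, from -0.11 for the large-subunit protein gene Gadd45gip1 to 0.26 for Chchd1. The counting intervals of Dap3 (1.03 to 1.19) and Chchd1 (1.05 to 1.36) lay above 1, where 10.8% of the 11070 genes had such an interval. None of the 5 passed the library test.

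Of 30 measured genes for assembly of the ribosome or modification of its RNA, 15 were above 1 and 15 below, with a median log2 fold of 0.00. The list also holds Mettl5, which acts on cytosolic ribosomal RNA, and Nsun3, which acts on a transfer RNA. Rpusd4, a pseudouridine synthase of mitochondrial ribosomal RNA, fell to 310 reads with the GR vector, against 406 with the control vector, a fold of 0.766 (adjusted p = 0.0249 in the library test). Ybey, an RNA-processing factor, had 174 reads with the GR vector and 125 with the control vector, and Mettl17 had 363 with the GR vector and 440 with the control vector. Neither passed the library test, although both lay past 1.2-fold. The most read genes of this list were Dhx30, with 2175 reads with the GR vector and 2348 with the control vector, and Afg3l2, with 1996 with the GR vector and 2004 with the control vector.

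Among 15 translation factors, the median log2 fold was -0.05, with 6 above 0 and 9 below. Mtif2, the initiation factor that places the first transfer RNA, rose to 770 reads with the GR vector, against 631 with the control vector, a fold of 1.22 (adjusted p = 0.0127 in the library test). Mtrf1, a release factor, had 186 reads with the GR vector and 145 with the control vector and did not pass. Lrpprc, an RNA-binding protein of mitochondrial messengers, had 2478 reads with the GR vector and 2465 with the control vector, and the elongation factor gene Tufm had 1088 with the GR vector and 1050 with the control vector.

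The list of genes for mitochondrial transcription and for control of nuclear mitochondrial genes included 1 that passed the library test. Gabpa, the DNA-binding subunit of GABP, rose to 1954 reads with the GR vector, against 1753 with the control vector, a fold of 1.12 (adjusted p = 0.0348 in the library test). With the GC trend of all genes removed, the log2 fold of Gabpa moved from 0.16 to 0.10. Yy1 had 4130 reads with the GR vector and 3970 with the control vector, and Nrf1 had 1013 with the GR vector and 1053 with the control vector. The list of 15 had a median log2 fold of 0.01, with 8 above 0 and 7 below.

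Transcripts of mitochondrial DNA, which the mitochondrial ribosome translates or contains, were listed for 15 genes. Of these, 12 were above 0, and 8 rose and 1 fell in the library test, where 1.58% and 1.14% of all genes did. These shares are not matched for depth, and the test calls smaller folds in genes with more reads. The list had a median of 4169.5 reads, against 843 over the 11070 genes averaging 100 reads or more. The median log2 fold was 0.06. Both ribosomal RNAs had more reads with the GR vector. Their mean levels were 142 RPKM for mt-Rnr2 and 197 for mt-Rnr1, against 2984 for mt-Cytb and a list median of 197. The part of library preparation in these levels and folds was not tested. The RNA of the large subunit, mt-Rnr2, had 4439 reads with the GR vector, against 3900 with the control vector, a fold of 1.14 (adjusted p = 7.26e-07 in the library test). The RNA of the small subunit, mt-Rnr1, had 3696 reads with the GR vector, against 3285 with the control vector, a fold of 1.13 (adjusted p = 0.000114 in the library test). The summed fold of the ribosomal protein genes was 0.989, and the difference between these folds was not tested. These transcripts have low GC content, a median of 36.0%. With the GC trend of all genes removed their median log2 fold was -0.02, while that of mt-Rnr2 was 0.11 and that of mt-Rnr1 was 0.10. Of the others that rose in the library test, mt-Co1 was then at 0.01, and mt-Nd5, mt-Nd4 and mt-Nd1 were each at -0.02. After the same removal mt-Atp6 stayed at 0.98 and mt-Co3 at 0.57. The folds of mt-Atp6 (2.07), mt-Co3 (1.56) and mt-Nd4l (0.710) are uncertain, since 98.9% to 99.9% of the 31-mers of these genes occur in another annotated gene. The most read, mt-Co1, had 110840 reads with the GR vector and 105660 with the control vector, and 63.9% of its 31-mers occur in another gene.

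In the list of the mitochondrial stress response, 5 of 12 were above 0 and 7 below, with a median log2 fold of -0.05. Atf5, a transcription factor of that response, fell to 10089 reads with the GR vector, against 10994 with the control vector, a fold of 0.920 (adjusted p = 7.82e-07 in the library test), and was the only gene of the list past that test. The list has a median transcript GC of 55.0%. With the GC trend of all genes removed its median log2 fold was -0.01, and that of Atf5 moved from -0.12 to -0.06. The chaperone gene Hspa9 had 16283 reads with the GR vector and 15857 with the control vector.

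**Figure D5:**
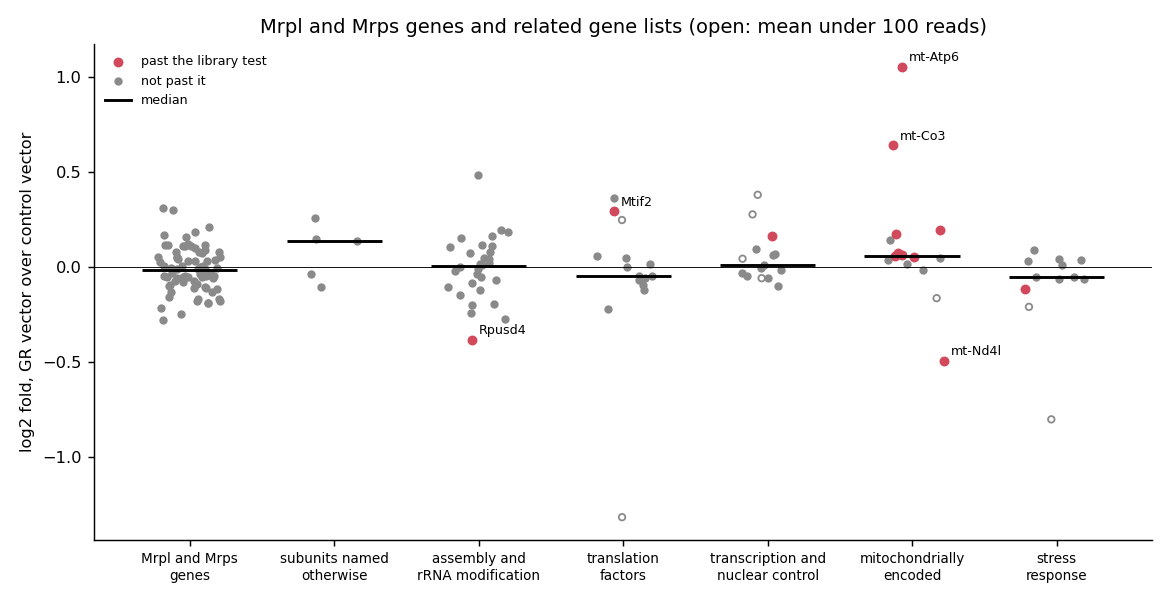
Log2 fold with the GR vector relative to the control vector (y axis) for the 77 Mrpl and Mrps genes and 6 related lists, with each point 1 gene, the median as a bar, red for genes past the library test and open circles for genes with a mean under 100 reads. The Mrpl and Mrps genes hold no red point, and the mitochondrially encoded list holds 9.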

How the data were processed

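RNA was sequenced from MIN6 cells with 1 library per group, and the genes, lists and motifs reported here were chosen with earlier results of these data known. The authors deposited a scaled signal per gene and library; dividing each column by its smallest step gave whole reads for 100% of values (within 0.01), and these recovered reads were used. The authors also deposited a log2 fold change and p-values. The submitters' processing notes name DESeq2 1.10.1, while the deposited p-values equalled an edgeR 4.0.16 exact test on the recovered reads with a preset dispersion of 0.04, to within 4.45e-08, so no spread between replicates stands behind them. The aligner, the genome build and strand handling were not given in the sources used here. No column belonged to a sample outside the series (0 columns).

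Folds were computed from recovered reads with TMM-scaled library sizes. Exact Clopper-Pearson 95% intervals and the library test (exact two-sided binomial test, Benjamini-Hochberg adjustment over all 21542 genes, called at an adjusted p under 0.05) cover counting error only and compare libraries. Calls by size took a fold of 1.2 at a mean of at least 100 reads. Of the genes, 21516 were found in GENCODE M21 (GRCm38), and 72 of the 77 members had the same coordinates there. That annotation gave transcript lengths, GC content, neighbours and shared 31-mers. RefSeq promoters were searched for fixed letters on both strands, and 79.5% of the expressed protein-coding genes had one. The level of a gene used its transcript with the longest coding sequence. Genes were named by a rule: members past 1.2-fold or the library test, the 6 highest and 6 lowest folds, the 6 most read, the 4 with the highest levels, the Mrps18 paralogs, those with at least 25% shared 31-mers and those with known roles outside the ribosome or at defined sites; other members named are described as such by position, motif or interval. Alternatives tried were other scalings, read minimums, fold thresholds, removal of GC and length trends (loess, span 0.3), leaving out members with shared sequence, the authors' fold change and other preset dispersions.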

Additional observations from a re-analysis of the deposited data

How the results depend on the processing

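Scaling by total reads or by DESeq2 size factors (DESeq2 1.42.0) and centring on the median gene left the members' counts of intervals and calls unchanged. The members' and subunit medians kept their sign under these scalings, which moved the median gene by at most 0.0042 on the log2 scale. Leaving out members with shared sequence also kept those signs, and took the intervals below 1 from 6 to 5. Across the alternatives run, 64 of 80 summary values were scored as kept. Some of these could hardly have changed and are no check. All members averaged 131 reads or more, so the minimum of 100 reads altered only the set over which the library test was adjusted. Centring on the median gene repeated the values under DESeq2 size factors. The authors' fold change nearly repeated the main one, with a members' median log2 fold of -0.0157 in both. The edgeR test at a dispersion of 0.04 was the one matched to the deposited p-values. A median was kept if its sign held and it moved less than the counting interval of its summed log2 fold reached to either side. A summed fold was kept inside that interval, and a count of members within a ratio of 1.5 of the main count. The count of genes past the edgeR test was kept only if equal. The other 16 values are given here. Restricting to the 8 members that averaged 1000 reads or more moved the members' median log2 fold to -0.0527 and that of the large subunit (7 genes) to -0.0521, with 1 interval above 1 and 0 below, and 0 members past 1.2-fold in either direction. The library test called 1 member higher (Mrpl11) and 1 lower (Mrps24) when adjusted over the 11070 genes averaging 100 reads or more, because fewer genes were tested. At a threshold of 1.1-fold, 6 members were higher and 10 lower, where 10.7% of the 11070 genes were higher and 10.4% lower, and at 1.5-fold 0 members were in either direction, where 0.126% and 0.154% of genes were. With the GC trend or the length trend removed, 0 members were lower past 1.2-fold, since Mrps24 moved under the threshold. The signs of Mrpl43, Mrpl51, Mrps18a and Mrps34, all within 0.03 of 0 on the log2 scale, changed under a trend removal. With a preset dispersion of 0.01, 16 genes passed the adjusted p of the edgeR exact test, and with 0.16, 0 did, against 4 in the authors' deposited table; none was a member. No paired analysis was possible because each group has 1 library, and for the same reason no library could be left out. Depth limits these results to folds of about 1.13 for a member with the median reads, and nothing here measures the spread between cultures.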
